A study of Mus musculus with 6 samples.

Results

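The cell cycle genes described here are 39 genes chosen by symbol, 24 that act in G2 and mitosis (G2/M) and 15 that act in DNA synthesis (S phase). All 39 were found among the 31055 genes of the count matrix. The data are single-cell RNA-seq of sorted heart cells in 6 libraries, 3 from control mice and 3 from Dsp_het mice. Control mice carried Wt1CreERT2 and Rosa26mTmG, and Dsp_het mice carried both and also 1 conditional copy of the desmoplakin gene (DspW/F). All were C57BL/6 mice aged 3 to 6 months, and the EGFP-positive cells were sorted after collagenase II digestion on a Langendorff system and removal of myocytes. In such mice a tamoxifen-dependent Cre made in cells that use the Wt1 promoter switches on EGFP. The sort therefore aims at the cells in which Cre acted and their descendants. Whether every sorted cell was such a cell was not tested. The labels number the samples in each group and do not say whether a sample was 1 animal, so p-values measure only the spread between these samples.

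A dividing cell first copies its DNA and then separates the copies. In S phase, the MCM proteins (Mcm2 to Mcm7) and Gins2 form part of the helicase that opens DNA, Pcna is the clamp that holds the polymerase, Fen1 trims the lagging strand, and Rrm1, Rrm2, Tyms and Tk1 supply nucleotides. In G2 and mitosis, Cdk1 with Ccna2, Ccnb1 and Ccnb2 drives entry, Plk1, Aurka, Aurkb, Bub1 and Bub1b run the spindle and its checkpoint, Cenpa, Cenpe and Cenpf sit at the centromere, Top2a untangles DNA, and Ube2c and Cdc20 serve the complex that ends mitosis. Most heart cells of an adult mouse are not dividing, and several S phase genes, such as Pcna and the histone chaperone subunit Ssrp1, also act in repair and transcription.

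Cell cycle genes are known to share promoter motifs, the CHR and CCAAT boxes in mitotic genes and E2F sites in S phase genes. Their letters were searched on both strands in the 250 bases before each RefSeq gene start (GRCm38.p6), which were found for 21 of the 24 G2/M and 12 of the 15 S phase genes. The CCAAT box (CCAAT) was present in 18 of the 21 G2/M genes (85.7%) and 8 of the 12 S phase genes (66.7%), against 37.5% of 27025 genes. The CHR (TTTGAA) was present in 8 G2/M genes (38.1%) and 3 S phase genes (25%), against 18.3% of all genes. An E2F site (TTCCCGC or TTGGCGC) was present in 3 G2/M genes (14.3%) and 5 S phase genes (41.7%), against 6.45% of all genes. An A before TTGGCGC makes the same bases a CCAAT box on the other strand. The members were not chosen by sequence, and a match describes letters only.

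A few of these promoters are printed to show how the motifs lie, chosen after the matches were seen, with the last 180 bases before the start, read toward the gene, and the motifs in capitals. Top2a (chr11:99024190-99024369, minus strand), Mki67 (chr7:135716380-135716559, minus strand) and Cdk1 (chr10:69352913-69353092, minus strand) stand for the G2/M genes, and Mcm5 (chr8:75109329-75109508, plus strand) and Mcm6 (chr1:128359706-128359885, minus strand) for the S phase genes.
Top2a: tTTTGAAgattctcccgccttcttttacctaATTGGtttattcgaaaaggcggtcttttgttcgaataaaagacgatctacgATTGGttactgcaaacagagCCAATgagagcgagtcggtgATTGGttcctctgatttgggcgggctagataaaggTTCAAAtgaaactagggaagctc
Mki67: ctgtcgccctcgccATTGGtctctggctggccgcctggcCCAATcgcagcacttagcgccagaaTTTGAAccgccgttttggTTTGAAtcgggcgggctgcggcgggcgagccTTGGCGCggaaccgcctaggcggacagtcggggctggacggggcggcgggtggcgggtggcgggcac
Cdk1: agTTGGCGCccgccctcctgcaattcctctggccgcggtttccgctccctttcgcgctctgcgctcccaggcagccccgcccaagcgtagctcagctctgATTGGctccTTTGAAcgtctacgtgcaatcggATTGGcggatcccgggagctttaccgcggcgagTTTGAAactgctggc
Mcm5: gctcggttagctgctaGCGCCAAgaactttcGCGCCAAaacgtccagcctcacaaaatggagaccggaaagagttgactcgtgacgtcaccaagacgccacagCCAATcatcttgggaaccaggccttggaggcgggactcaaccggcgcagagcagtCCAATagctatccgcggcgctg
Mcm6: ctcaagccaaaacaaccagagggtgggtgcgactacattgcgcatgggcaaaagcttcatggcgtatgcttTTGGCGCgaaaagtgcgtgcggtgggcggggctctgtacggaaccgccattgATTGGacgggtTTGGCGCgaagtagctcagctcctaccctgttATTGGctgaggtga
The Top2a, Mki67 and Cdk1 windows hold both the CHR and the CCAAT box, those of Mki67 and Cdk1 an E2F site as well, and those of Mcm5 and Mcm6 hold E2F sites and CCAAT boxes with no CHR.

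The 18283 deposited barcodes held 13183 distinct barcode sequences, of which 1689 occurred in more than 1 library and 530 in all 6. Each barcode was counted once, in its library with most UMIs (unique molecules), which set aside 17.4% to 25.6% of the barcodes of 4 libraries, 41.7% of Dsp_het 2 and 49.0% of Dsp_het 3. After filters on UMIs, genes and mitochondrial UMIs, 12610 cells remained, 1054 to 2942 per library with a median of 3489 to 6478 UMIs. Total depth was 7573157 to 17083660 UMIs per library. Xist was at 504 CPM (UMIs scaled to 1000000 per library or class) in control 3 and 644 CPM in Dsp_het 2 and at most 0.147 CPM in the other 4 libraries.

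The cells formed 18 clusters when the cell cycle genes were left out, and the clusters were named from marker lists. Endothelial-like cells made up 76.9% of cells, and the 14 endothelial markers summed to 32625 to 39946 CPM in them. In the fibroblast-like cells those markers were at 305 to 1378 CPM, while the fibroblast markers were at 56075 to 70923 CPM. Epicardial-like cells were 4.65% of the cells, and macrophage or monocyte-like cells were 1.75%. Pericyte-like cells carried pericyte markers at 10751 to 13808 CPM and endothelial markers at 19344 to 25607 CPM. The part of mixed droplets in that class was not tested.

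The G2/M genes were carried by few cells, and these belonged to more than 1 class. Of the 8248 G2/M UMIs in all cells, 61.3% lay in endothelial-like cells, which held 65.3% of all UMIs. Macrophage or monocyte-like cells held 20.9% of the G2/M UMIs and 4.08% of all UMIs. T or NK cell-like cells held 6.27% in 20 cells. Fibroblast-like cells held 2.62% of the G2/M UMIs against 15.2% of all UMIs. The S phase genes were spread more evenly, with 71.1% of their 18395 UMIs in endothelial-like, 10.8% in fibroblast-like, 7.63% in epicardial-like and 4.31% in macrophage or monocyte-like cells.

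Within the endothelial-like cells, 1 cluster carried 3179 of the 5054 G2/M UMIs pooled over libraries. Its leading genes were Apln, a peptide of sprouting vessels, Kit and Fscn1, and it is called the Apln cluster here. It held 38.5% of the G2/M and 16.5% of the S phase UMIs of all cells with 9.23% of the cells. By library, its share of the G2/M UMIs was 68.4%, 59.3% and 30.3% in control 1 to 3 and 19.0%, 27.3% and 22.4% in Dsp_het 1 to 3. As pooled levels over its cells, the G2/M genes summed to 553 CPM and the S phase genes to 528 CPM. Its G2/M sum was 699, 993 and 333 CPM in control 1 to 3 and 145, 973 and 663 CPM in Dsp_het 1 to 3. The endothelial-like cluster led by Ccl21a and Vwf had pooled levels of 132 CPM for G2/M and 317 CPM for S phase genes. By library its G2/M sum was 132, 90.4 and 23.3 CPM in control 1 to 3 and 32.7, 32.7 and 339.9 CPM in Dsp_het 1 to 3, and 1 cell held 319 of the 431 G2/M UMIs in Dsp_het 3. The interferon cluster led by Isg15 was at 112 CPM for G2/M genes, but at 323 CPM in control 3 and 19.1 to 34.2 CPM in the other 5 libraries. A single cell held 230 of the 266 G2/M UMIs of this cluster in control 3. The other endothelial-like clusters were at 27.8 to 37.7 CPM for G2/M and 242 to 304 CPM for S phase genes.

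Outside the endothelium, the pooled G2/M sum was 3816 CPM in T or NK cell-like and 673 CPM in macrophage or monocyte-like cells. The macrophage or monocyte-like value was 217 to 446 CPM in controls. In that class single cells held 504 of the 513 UMIs in Dsp_het 2 and 643 of 676 in Dsp_het 3. The T or NK cell-like value came from few cells, with 172 of its 517 UMIs in control 3 and 340 in Dsp_het 2, where single cells held 170 and 202. It was 71.8 CPM in epicardial-like cells, and 191 CPM in Dsp_het 1 against 14.7 to 18.5 CPM in the other libraries. It was 54.6 CPM in pericyte-like, 23.6 CPM in cardiomyocyte-like and 16.1 and 23.0 CPM in the fibroblast-like clusters. An unnamed cluster led by haemoglobin genes stood at 246 CPM when pooled. By library it was at 206, 36.5 and 306 CPM in control 1 to 3 and 73.9, 10.1 and 2224.5 CPM in Dsp_het 1 to 3. The Dsp_het 3 value was 65 UMIs in 12 cells. The S phase sum ranged less, from 203 CPM in the larger fibroblast-like cluster to 871 CPM in T or NK cell-like cells, leaving out an unnamed cluster of 31 cells.

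**Figure D1:**
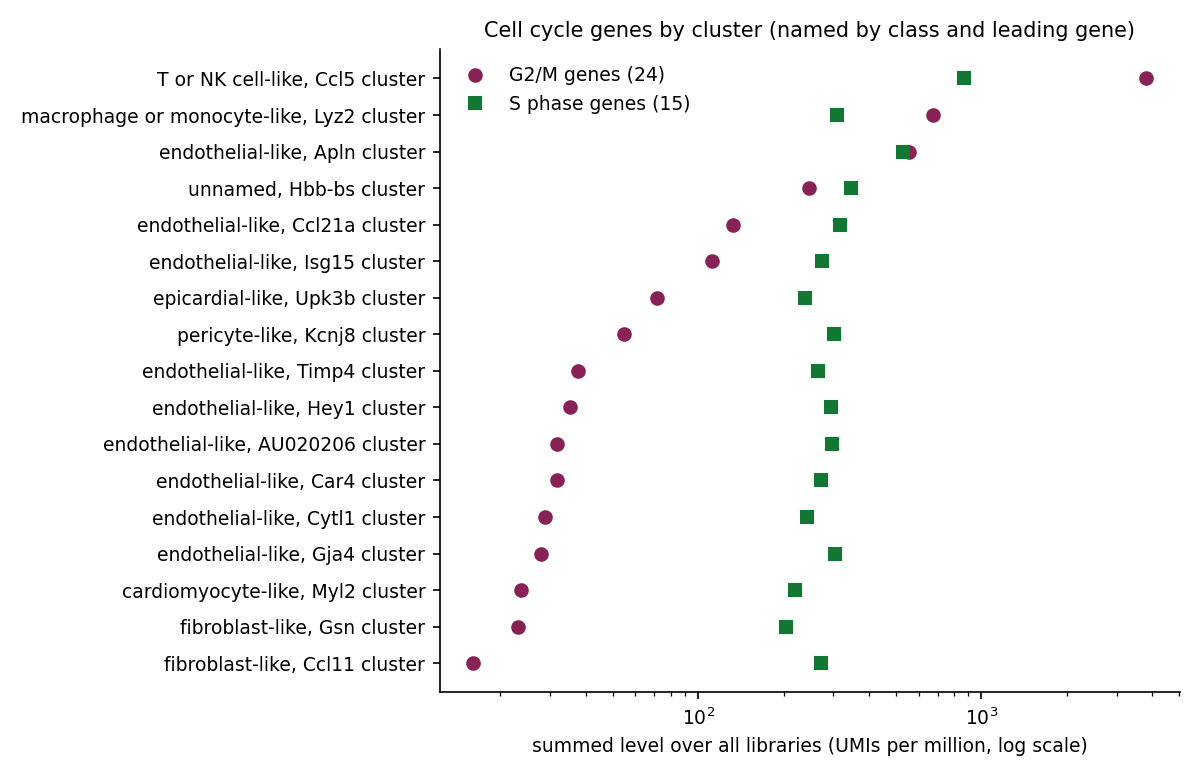
Pooled level of the 24 G2/M genes and of the 15 S phase genes in each cluster, in CPM on a log axis. The T or NK cell-like cluster (3816), the macrophage or monocyte-like cluster (673) and the Apln cluster (553) were highest for G2/M genes when pooled over libraries, while S phase levels lay closer together. The T or NK cell-like level came through control 3 and Dsp_het 2, and the macrophage or monocyte-like level mostly through single cells of Dsp_het 2 and Dsp_het 3. By library, the Apln cluster was at 145 to 993 CPM for G2/M genes.

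Single members differed in where they lay. Cenpe, the centromere motor, had 44.8% of its 192 UMIs in macrophage or monocyte-like cells, and Ube2c had 35.5% of 428. In that class 1 cell of Dsp_het 2 and 1 of Dsp_het 3 held 25 and 46 of the Cenpe UMIs and 73 and 47 of the Ube2c UMIs. Among S phase genes, Tk1 had 30% of its 150 UMIs there and Rrm2 had 10% of its 220 UMIs in T or NK cell-like cells. The Apln cluster held 57.6% of Bub1, 52.5% of Ccna2, 50.2% of Prc1 and 50% of Tk1, but 18.7% of Cenpa, 11.3% of Ssrp1 and 10.6% of Tipin. Cenpa was the most abundant G2/M gene with 1127 UMIs, and Ssrp1 the most abundant S phase gene with 4199. Mcm3, with 82.4% of its UMIs in endothelial-like cells, had 1.43% in epicardial-like cells, where Mcm4 had 10.5%.

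A handful of cells carried most of the G2/M signal. The 16 highest of the 12610 cells held 51.4% of the G2/M UMIs, and the 47 cells with at least 10 such UMIs held 75.0%, while 86.9% of cells had none. The 16 cells were 10 endothelial-like, 3 macrophage or monocyte-like, 2 T or NK cell-like and 1 epicardial-like. They came from all 6 libraries, with 3, 2 and 3 in control 1 to 3 and 1, 4 and 3 in Dsp_het 1 to 3. The highest, a macrophage or monocyte-like cell of Dsp_het 3, had 643 G2/M UMIs among 42720 and a UMI of all 24 genes. S phase UMIs were dispersed, with 5.19% in the 16 highest cells, and 36.7% of cells had none.

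The cells high in G2/M genes often had a barcode that also occurred in other libraries. This was so for 14 of the 16 cells and for 29 of the 47, against 1613 of all 12610 cells. These cells also had many UMIs, from 5938 to 42720 among the 16. The occurrences set aside as copies held a further 1133 G2/M UMIs, at 398 CPM against 131 CPM in the kept cells, whereas the S phase level was 289.6 CPM in them against 293 CPM. With barcodes found in 1 library only, the G2/M sum was 76.4, 40.8 and 61.3 CPM in control 1 to 3 and 38.6, 79.9 and 61.6 CPM in Dsp_het 1 to 3. The S phase sum was then 314, 296 and 277 CPM against 279, 272 and 281 CPM. The part of the shared barcodes in the G2/M levels below was not tested beyond these values.

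**Figure D2:**
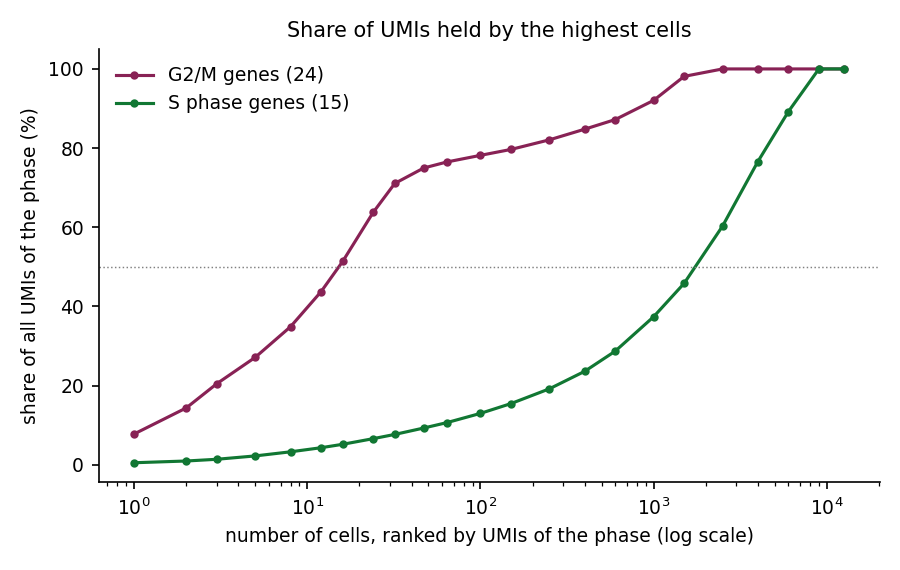
Share of all G2/M UMIs and of all S phase UMIs held by the highest cells, with the number of cells on a log axis. The 16 cells highest in G2/M genes held 51.4% of the G2/M UMIs, and the 16 cells highest in S phase genes held 5.19% of the S phase UMIs.

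The balance of the phases differed between the classes. With the libraries pooled, G2/M UMIs per S phase UMI came to 4.38 in T or NK cell-like cells, 2.18 in macrophage or monocyte-like cells, 1.05 in the Apln cluster, 0.302 in epicardial-like and 0.109 in fibroblast-like cells. The T or NK cell-like value rests on control 3 (2.53) and Dsp_het 2 (10), since the other 4 libraries were at 0 to 0.5. The epicardial-like value rests on Dsp_het 1 (0.796), where 1 cell held 200 of the 354 G2/M UMIs, and the other 5 libraries were at 0.0617 to 0.0870. In the Apln cluster the ratio was 1.15, 1.73 and 0.618 in control 1 to 3 and 0.291, 3.37 and 1.51 in Dsp_het 1 to 3. A single cell held 543 of the 1231 G2/M UMIs of this cluster in control 1. In Dsp_het 2, single cells held 224 and 166 of its 408 G2/M UMIs. Over all cells of a library, the ratio was 0.527, 0.423 and 0.333 in control 1 to 3 and 0.226, 0.635 and 0.732 in Dsp_het 1 to 3. The Dsp_het libraries lay on both sides of the controls. In endothelial-like cells, it was 0.529, 0.438 and 0.312 in controls and 0.152, 0.332 and 0.624 in Dsp_het. In fibroblast-like cells it stayed between 0.0780 and 0.123 in all 6 libraries. In macrophage or monocyte-like cells the ratio was 1.43, 0.928 and 0.659 in controls, 8.14 in Dsp_het 2 and 4.45 in Dsp_het 3, and Dsp_het 1 had 2 such cells with no member UMI. Single cells held 504 of the 513 G2/M UMIs of this class in Dsp_het 2 and 643 of 676 in Dsp_het 3. The place of this class above the Apln cluster in the pooled ratios rests on these cells.

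To compare single cells at equal depth, each cell was thinned to 2000 UMIs, and a cell with at least 3 different members of a phase was called for it. Of the 10652 cells deep enough, 159 had an S phase call only, 20 a G2/M call only and 29 both. The 1958 shallower cells were left out, 1164 in control and 794 in Dsp_het libraries. In the Apln cluster, 4.94% of 1033 cells had an S phase call only and 2.71% a G2/M call. Endothelial-like cells as a whole were at 1.75% (exact 95% interval 1.48% to 2.06%) and 0.423% (0.295% to 0.587%). Without Ssrp1, Pcna and Rrm1, S phase calls alone in endothelial-like cells were at 0.994%, 0.583% and 0.677% in control 1 to 3. They were then at 0.566%, 0.372% and 0.580% in Dsp_het 1 to 3. The part of chance draws of a few UMIs in the S phase calls was not tested. Fibroblast-like cells had a lower pooled S phase level (207 CPM against 318 CPM in endothelial-like cells). They were at 0.258% for S phase (3 of 1163 cells). Of the same 1163 cells, 0 had a G2/M call (exact 95% interval 0% to 0.317%). Macrophage or monocyte-like cells were at 2.80% for G2/M calls (6 of 214), and 3 of 19 T or NK cell-like cells had one. Intervals and limits cover counting error only.

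The calls went with other cell cycle genes that were not used to make them. In endothelial-like cells without a call, the list of 74 other mitotic genes summed to 2431 CPM and the list of 53 other replication genes to 764 CPM. Cells with an S phase call only had 3961 and 2030 CPM. Cells with both calls had 28626 and 7292 CPM, and their replication histone genes were at 8236 CPM against 544 CPM without a call and 402 CPM with an S phase call only. Cells with a G2/M call only had 17229 CPM of the mitotic and 1984 CPM of the replication genes. The cells with both calls and those with a G2/M call only had median depths of 8479.5 and 11082 UMIs, against 4308 with an S phase call only and 4110.5 without one.

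By library, S phase calls alone were made in 2.26%, 1.34% and 1.67% of the thinned cells of control 1 to 3 and 1.08%, 1.37% and 0.941% of Dsp_het 1 to 3. G2/M calls were made in 0.513%, 0.630% and 0.366% of control and 0.291%, 0.374% and 0.941% of Dsp_het cells. Both overlapped between the groups, and each G2/M share rests on 6 to 10 cells. In endothelial-like cells, S phase calls alone were at 2.46%, 1.55% and 1.77% in controls and 1.51%, 1.56% and 1.16% in Dsp_het, which overlap. Without thinning, these shares were 9.25%, 9.42% and 12% against 6.76%, 10.3% and 17.2%, so the order of the libraries turned. No test was made of shares or sums over the members, since they are scores over a chosen list.

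The question of the genotype comparison was whether cell cycle genes differed between Dsp_het and control hearts. No member passed the test in any comparison. Over all cells, the S phase sum was lower in Dsp_het, at 335, 317 and 299 CPM in control 1 to 3 and 271, 269 and 269.8 CPM in Dsp_het 1 to 3. The group means were 317 ± 17.8 and 270.0 ± 1.38 CPM (SD, n = 3), a log2 ratio of -0.23, and the groups did not overlap. With barcodes of 1 library only the log2 ratio was -0.092 and the groups overlapped, with control 3 at 277 CPM below Dsp_het 1 and 3 at 279 and 281 CPM. The G2/M sum was 176, 134 and 99.7 CPM in control and 61.3, 171 and 197 CPM in Dsp_het. With means of 137 ± 38.5 and 143 ± 72.2 CPM (SD, n = 3), the groups overlapped throughout.

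Between the libraries, the mix of cells differed too. Endothelial-like cells gave 79.2%, 72.4% and 66.7% of the UMIs of control 1 to 3 and 51.6%, 72.3% and 54.8% of Dsp_het 1 to 3. Fibroblast-like cells, low in both phases, gave 9.48% to 9.75% in controls, and 33.2%, 11.3% and 12.7% in Dsp_het. Within endothelial-like cells, the S phase sum was 362, 322 and 310.0 CPM in controls and 319.6, 285 and 303 CPM in Dsp_het, which overlap (331 ± 27.1 and 302 ± 17.5, SD, n = 3). The Apln cluster gave 17.3%, 8.0% and 9.08% of the UMIs in controls and 8.03%, 4.80% and 6.66% in Dsp_het. In that cluster alone, the S phase sum was 609, 573 and 538 CPM against 498, 288 and 440.3 CPM, with no overlap. Endothelial-like cells without it had 286 ± 10.2 CPM in controls and 285 ± 1.37 CPM in Dsp_het (SD, n = 3). The part of the cell mix in the difference over all cells was not tested beyond these values.

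**Figure D3:**
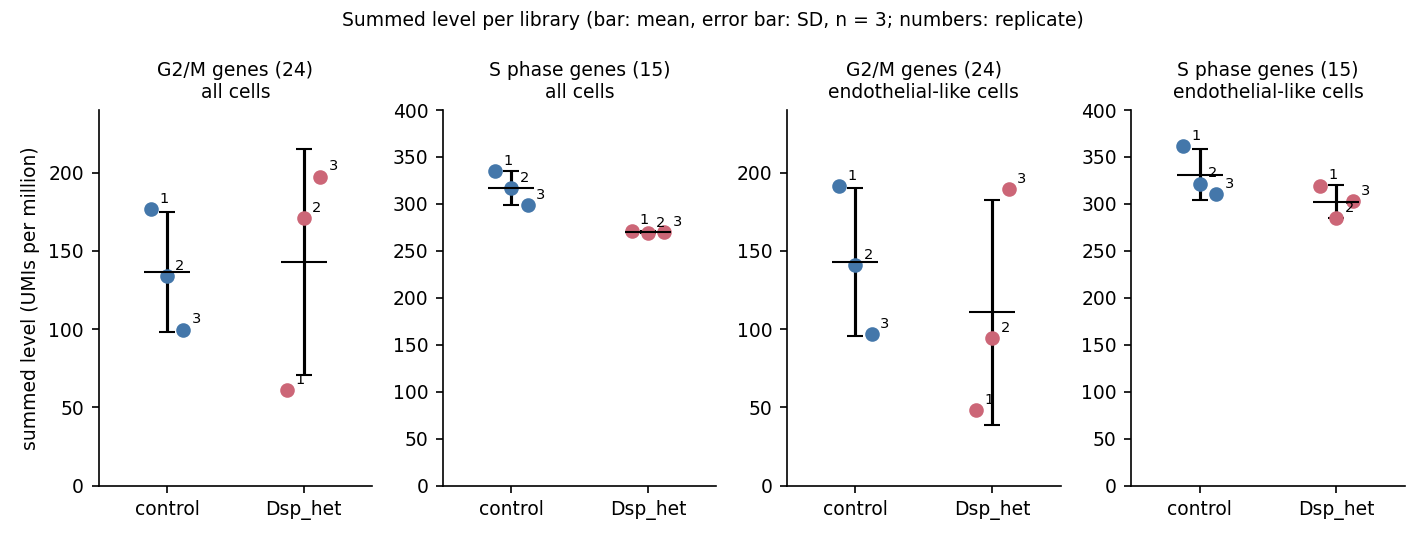
Summed level of the G2/M genes and of the S phase genes in each library, in CPM, over all cells and over endothelial-like cells, with the mean and SD of each group of 3. S phase levels over all cells lie at 299 to 335 in control and 269 to 271 in Dsp_het, and the other 3 panels show groups that overlap.

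Gene by gene over all cells, 0 of the 39 members passed an adjusted p of 0.05 by edgeR's quasi-likelihood test with Benjamini-Hochberg adjustment, and the share over all 12971 genes tested was 0.0%. DESeq2 called 0 members as well, against 370 of 20028 genes. At an unadjusted p under 0.05, 6 members passed, against 12.5% of all genes. Of these, 5 S phase genes were lower and 1 G2/M gene was higher, against 3.32% of all genes lower and 9.2% higher. All 15 S phase genes had a log2 difference below 0, with a median of -0.22, while 52.1% of all genes were below 0 with a median of -0.01. On the normalised scale the groups did not overlap for 8 of the 15, all lower in Dsp_het, against 7.39% of all genes lower. Ccnb1 was the 1 G2/M gene whose groups did not overlap, and it was higher, against 10.4% of all genes. With barcodes of 1 library only, 11 of 14 S phase genes were below 0 with a median of -0.10. The G2/M genes split into 14 above and 10 below 0, with a median of 0.03 that was 0.38 without Dsp_het 1 and -0.39 without Dsp_het 3.

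The S phase genes with the smallest p-values were Mcm3 and Rrm2. Mcm3, a helicase subunit, was at 33.0, 27.3 and 25.4 CPM in control 1 to 3 and 19.7, 20.3 and 22.1 CPM in Dsp_het 1 to 3. Each Dsp_het library was below each control, with a log2 difference of -0.47 (SE 0.12, edgeR adjusted p = 0.203). Rrm2, the regulated subunit of ribonucleotide reductase, was at 5.2, 4.98 and 4.06 CPM in controls and 1.90, 2.06 and 3.22 CPM in Dsp_het. Its log2 difference was -1.0 (SE 0.27, edgeR adjusted p = 0.228), again with no overlap. Tk1, thymidine kinase, missed the threshold too, at 4.31, 4.40 and 2.49 CPM against 0.686, 1.14 and 2.19 CPM (log2 difference -1.50, SE 0.44, edgeR adjusted p = 0.256).

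The abundant S phase genes differed less. The levels given are plain CPM, in which the groups did not overlap for 7 of the 15 S phase genes, all lower in Dsp_het, against 6.77% of all genes lower. Ssrp1 was at 72.5, 71.8 and 68.3 CPM in controls and 55.5, 66.2 and 71.3 CPM in Dsp_het, where Dsp_het 1 was lowest. Its groups overlapped in plain CPM but not on the normalised scale. Pcna was at 48.2, 47.2 and 43.2 CPM against 40.2, 42.2 and 41.4 CPM, with no overlap and a log2 difference of -0.17. Tipin, which steadies the replication fork, was at 30.9, 33.8 and 28.4 CPM against 33.1, 27.2 and 22.8 CPM, and the groups overlapped. Mcm7 was at 27.9, 29.7 and 27.3 CPM against 24.5, 27.2 and 24.4 CPM, where the highest Dsp_het library lay just under the lowest control. On the normalised scale its groups overlapped. Mcm5 was at 8.53, 7.33 and 9.24 CPM against 6.10, 3.32 and 4.83 CPM, a log2 difference of -0.82 with an unadjusted edgeR p of 0.0165. The remaining S phase genes had log2 differences from -0.53 for Fen1 to -0.10 for Mcm4.

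Among G2/M genes, the Dsp_het libraries lay on both sides of the controls for the 3 most abundant after Cenpa. Top2a was at 19.6, 15.1 and 8.65 CPM in controls and 2.74, 17.9 and 24.2 CPM in Dsp_het. Mki67, the proliferation marker, was at 14.9, 10.3 and 7.14 CPM against 2.29, 12.8 and 22.1 CPM. Cenpf was at 13.2, 7.47 and 7.34 CPM against 4.42, 16.5 and 15.4 CPM. In all 3 genes Dsp_het 1 was the lowest library and a Dsp_het library was the highest. Cenpa was even, at 20.2, 19.0 and 16.4 CPM against 14.5, 21.1 and 19.2 CPM. Cdk1 was at 12, 9.82 and 6.81 CPM against 2.13, 6.30 and 8.74 CPM, which overlap. Bub1b was at 2.25, 1.17 and 0.917 CPM against 0.457, 2.52 and 2.88 CPM, on both sides of the controls.

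Ccnb1, a partner of Cdk1, was the G2/M gene with the smallest p-value in the higher direction. It was at 2.16, 1.32 and 1.97 CPM in controls and 4.42, 2.75 and 3.45 CPM in Dsp_het, with no overlap and a log2 difference of 0.94 (SE 0.32, edgeR adjusted p = 0.309). In Dsp_het 1, 33 of the 58 Ccnb1 UMIs lay in 1 fibroblast-like cell that had a UMI of no other G2/M gene. Single macrophage or monocyte-like cells held 12 of 24 in Dsp_het 2 and 19 of 30 in Dsp_het 3. In controls the highest cell held 23.3% to 45.5% of the Ccnb1 UMIs of its library. Aspm, a spindle pole protein, was at 1.37, 1.32 and 0.983 CPM against 0.991, 3.66 and 3.22 CPM (log2 difference 1.07, SE 0.50, edgeR adjusted p = 0.444). Dsp_het 1 lay among the controls for Aspm, and the other Dsp_het libraries above them.

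**Figure D4:**
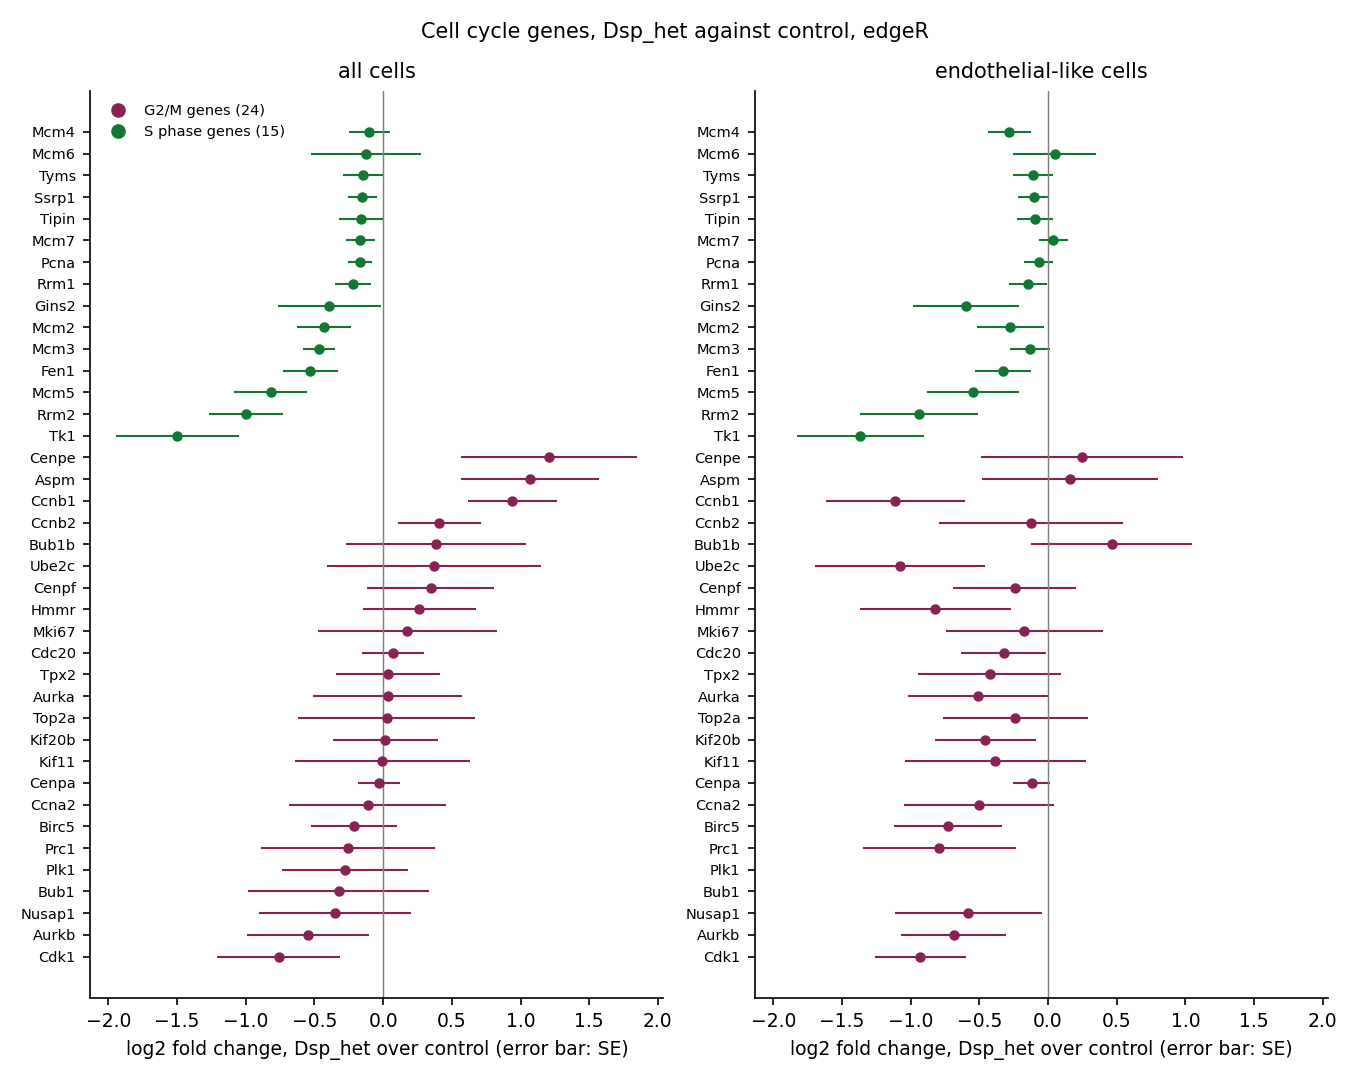
Log2 difference of each member between Dsp_het and control, with its standard error, over all cells and over endothelial-like cells. Over all cells the 15 S phase genes lie below 0 and the G2/M genes on both sides, while in endothelial-like cells most members of both phases lie below 0.

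In endothelial-like cells, 37 of the 39 members were tested by edgeR and 0 passed, against 0.0% of 11369 genes. DESeq2 called 0 members, against 15 of 17780 genes. At an unadjusted p under 0.05, 4 members passed, all lower, against 4.49% of all genes, 1.64% lower and 2.84% higher. On the normalised scale the groups did not overlap for 2 members, Tk1 and Mcm4, both lower, against 3.84% of all genes. The G2/M genes had 3 log2 differences above and 19 below 0, with a median of -0.44. That median was -0.07 without Dsp_het 1 and -1.26 without Dsp_het 3. The S phase genes had 2 above and 13 below 0, with a median of -0.15, and 49.7% of all genes were below 0.

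Tk1 had the smallest p-value there, at 5.07, 3.24 and 1.57 CPM in controls and 1.33, 0.949 and 1.47 CPM in Dsp_het. All 3 Dsp_het libraries were below the controls, with a log2 difference of -1.37 (SE 0.46, edgeR adjusted p = 0.889). Cdk1 was at 13.1, 9.92 and 7.37 CPM against 3.25, 4.27 and 8.82 CPM (log2 difference -0.93, SE 0.33, edgeR adjusted p = 0.963). Its edgeR adjusted p was 0.0395 with no filter on low counts, the 1 of 39 members called under that setting. That setting called 144 of 17780 genes. Rrm2 was at 6.19, 4.25 and 3.54 CPM against 2.36, 0.949 and 4.20 CPM, and Ccnb1 at 2.23, 1.82 and 2.56 CPM against 0.443, 0.791 and 2.10 CPM. Both overlapped between the groups. Ccnb1 thus had log2 differences of opposite sign in endothelial-like cells (-1.11) and over all cells (0.94), and the difference between these was not tested. Upward, the smallest p-values were those of Bub1b and Mcm7. Bub1b was at 1.98, 1.01 and 0.786 CPM in controls and 0.591, 1.58 and 3.36 CPM in Dsp_het, a log2 difference of 0.46. Mcm7 was even, at 30.8, 28.3 and 28.7 CPM against 30.4, 30.5 and 29.4 CPM, a log2 difference of 0.039. Both overlapped between the groups and missed the threshold.

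In the other classes few members had enough counts. In fibroblast-like cells 7 S phase genes were tested and 0 passed, with 3 above and 4 below 0, while 0.0119% of 8371 genes were called. In epicardial-like cells 7 S phase genes were tested and 0 passed, against 0.0% of 8225 genes. They had 3 above and 4 below 0 there too, where 49.3% of all genes were below 0, and 49.6% in fibroblast-like cells. At an unadjusted p under 0.05, 0 of the 7 passed in either class, against 3.13% of all genes in fibroblast-like and 3.2% in epicardial-like cells. DESeq2 called 0 members in both, against 8 of 16159 genes in fibroblast-like cells. The G2/M sum of fibroblast-like cells was 16.2 to 25.9 CPM in all 6 libraries. Macrophage or monocyte-like cells carried it at 361, 446 and 217 CPM in controls, 2179 CPM in Dsp_het 2 and 1066 CPM in Dsp_het 3, and were not tested, since Dsp_het 1 had 2 of them. In Dsp_het 3 a single cell gave 643 of that class's 676 G2/M UMIs, and in Dsp_het 2 a single cell gave 504 of 513.

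Other genes of the pathway, listed apart from the members, did not pass the test by genotype either. Over all cells, 0 of 48 other replication genes passed by edgeR, with 5 above and 43 below 0 and a median of -0.22. Of 63 other mitotic genes, 0 passed, with 21 above and 42 below 0 and a median of -0.12. Pola2, a polymerase alpha subunit, had a log2 difference of -0.42 (edgeR adjusted p = 0.228), and Pttg1, securin, one of 0.71 (edgeR adjusted p = 0.143). Of the G1 cyclins, their kinases, E2F factors and related regulators such as Myc, 0 of 19 passed, with Ccnd1 at -0.49 (edgeR adjusted p = 0.285). Of 29 inhibitor and quiescence genes, 0 passed, and Btg2 had the smallest p-value at 0.44 (edgeR adjusted p = 0.206).

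The last comparison asked what else distinguished endothelial-like cells with a cell cycle call from those with no member UMI after thinning, within each library. Cells with a call numbered 51, 22 and 39 in control 1 to 3 and 29, 24 and 15 in Dsp_het 1 to 3. The rule fixes the members and the lists of other replication and mitotic genes, so these are not results here. Of the 8786 remaining genes, 799 passed by edgeR with library as a block, 396 higher and 403 lower (10.2% of all 8897 genes tested passed, 5.63% higher and 4.53% lower). Sums of thinned cells gave 179 calls and leaving out control 1 gave 449. The Apln cluster supplied 51 of the 145 cells with an S phase call only and 28 of the 35 with a G2/M call. Its part in these differences was not tested.

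The largest increases were in further genes of replication and division. A call picks cells that express such genes, so these increases follow from the rule and are not results either. They are included in the genes counted as higher above. Cep55, which acts when daughter cells part, had 81 UMIs in the called cells and 0 in the others, at least 478-fold higher against a floor of 3 counts over the group. Hist1h1b, a linker histone, was at 264 ± 276 CPM against 0.467 ± 0.272 CPM (SD, n = 6), with a log2 difference of 8.61 (SE 0.33, edgeR adjusted p = 5.27e-21). Knl1, of the kinetochore, was at 81.2 ± 46.2 against 0.253 ± 0.199 CPM, and Pclaf, which binds Pcna, at 138 ± 91.2 against 1.19 ± 0.542 CPM. Neil3, Diaph3, Lockd, Hist1h2ae and Hist1h2ap were also among the 10 largest, each higher in 6 of 6 libraries.

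Angiogenic endothelial genes were higher in the called cells, with 8 of 15 higher and 0 lower. Apln was at 120 ± 60.8 CPM against 25.5 ± 8.30 CPM (SD, n = 6; log2 difference 2.15, SE 0.22, edgeR adjusted p = 1.67e-09) and higher in 5 of 6 libraries. Pgf, a relative of VEGF, was at 58.5 ± 44.2 against 9.09 ± 6.54 CPM (log2 difference 2.76), Kit at 68.4 ± 48.1 against 25.3 ± 7.29 CPM (1.34), and Fscn1, an actin bundler, at 257 ± 84.2 against 139.9 ± 21.8 CPM (0.82). Capillary genes were lower, 11 of 11. Cxcl12 had a log2 difference of -0.83, Timp4 -1.35, Car4 -1.01 and Cd300lg -0.80. Of those 4, the call of Cxcl12 ended with at least 2 members per call, and the other calls held under the alternatives tried.

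Genes of larger vessels were also lower, with 8 of 11 arterial, 7 of 10 venous and 3 of 7 endocardial genes lower and 0 higher. Edn1, the peptide endothelin, had the largest decrease, at 11.1 ± 10.5 against 74.5 ± 16.9 CPM (SD, n = 6; log2 difference -2.42, SE 0.31, edgeR adjusted p = 3.08e-07), lower in 6 of 6 libraries. Among the 10 largest decreases were the venous genes Plvap (-1.76) and Mgp (-1.63), the arterial connexin Gja4 (-1.52) and the interferon gene Ifit1 (-1.31), with Rusc1, Fam117b, Neu1 and Timp4. Of these, Gja4, Ifit1, Rusc1, Fam117b and Neu1 lost the call with thinned sums. Interferon genes were lower in 4 of 11 and higher in 0.

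Genes listed for the G1 phase and for cell cycle exit went both ways. A call picks cells by their cell cycle genes, so the changes in these lists cannot be told apart from that choice. Of 14 G1 cyclins, their kinases, E2F factors and related regulators such as the phosphatase Cdc25a, 4 were higher and 1 lower. Cdk4 had a log2 difference of 0.71, Cdk6 1.17, Tfdp1 1.56 and Cdc25a 1.71, whereas Ccnd2, a D-type cyclin, was lower at 134 ± 23.5 against 222 ± 37.7 CPM (-0.84). Cdk4 and Ccnd2 lost the call with thinned sums, and Cdk4, Ccnd2, Cdk6 and Cdc25a lost it with at least 2 members per call. Of 25 inhibitor and quiescence genes, 7 were higher and 4 lower. Cdkn2c, an inhibitor of Cdk4 and Cdk6, was at 105 ± 38.4 against 16.8 ± 4.06 CPM (SD, n = 6; log2 difference 2.60, SE 0.23, edgeR adjusted p = 5.21e-11), Rbl1 had 2.12 and Lin9 1.98. Cdkn1c was lower (-0.81), and Cdkn1a was higher (0.81) except with thinned sums or at least 2 members per call, where its call was lost. Of 16 immediate early and heat shock genes, 1 was higher, the chaperone gene Hsp90aa1 (1.12), and 5 were lower, among them Jun (-0.43). The lineage reporter GFP did not pass, at 3560 ± 831 against 3727 ± 374 CPM (log2 difference -0.17, edgeR adjusted p = 0.194).

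**Figure D5:**
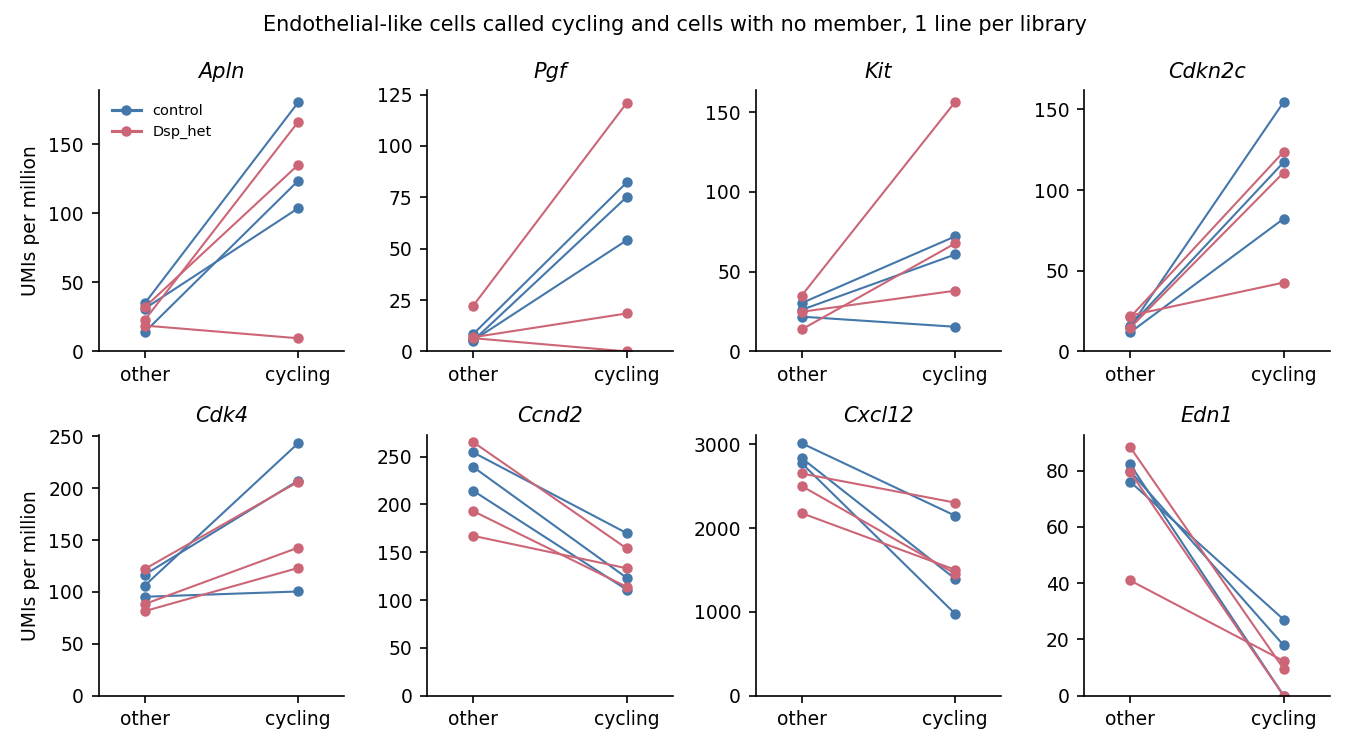
Levels of selected genes in endothelial-like cells with a cell cycle call and in those with no member UMI, 1 pair of points per library, in CPM. Apln is higher in the called cells in 5 of 6 libraries, Cdkn2c in 6 of 6, and Edn1 is lower in 6 of 6.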

How the data were processed

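The authors deposited raw UMI counts per gene and barcode from 10x Genomics 3′ libraries read on a NovaSeq6000, with the total count of each barcode. The submitters' processing notes name GRCm38 and Seurat, while for the aligner and counting program the name is not given in the sources used. The column sums of the matrix equalled the deposited totals for all 18283 barcodes. Libraries were identified by the barcode suffix, which matches the sample number in the labels, and 0 columns of other samples were present. The members, gene lists and tests were chosen with earlier results of these data known.

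Each barcode sequence was counted in its library with most UMIs, and filtered at minimums of 500 UMIs and 200 genes and a maximum of 20% mitochondrial UMIs. Scrublet called 54 of 12664 barcodes (0.426%) as doublets, so doublet removal has not worked, and these 54 were left out. Counts were clustered with scanpy (1.11.5) from 2000 variable genes, 30 principal components and 15 neighbours by Leiden clustering at resolution 1.0, without 234 genes, namely the members, the other replication and mitotic lists and replication histones. The 68 histones and Pclaf were removed after a histone-led cluster had been seen. Clusters were named from marker lists, and a cluster led by haemoglobin genes stayed unnamed.

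Counts were summed per library over all cells, and in each class with at least 20 cells in every library, and fitted with edgeR (4.0.16, R 4.3.3) by quasi-likelihood after TMM, with filterByExpr set to 10 counts. P-values are two-sided and Benjamini-Hochberg adjusted over all genes tested, with a threshold of 0.05. DESeq2 (1.42.0) was an alternative. CPM are UMIs scaled to 1000000 over the cells summed. Cells were thinned to 2000 UMIs for calls, and shares have exact Clopper-Pearson 95% intervals. The fit was tested on simulated data with the same dispersion, the spread beyond counting error, of 0.02 for every gene. The changed genes were drawn from the more abundant ones. For the all-cell comparison (13110 genes), 96.0% of genes changed 2-fold and 100% changed 4-fold were called, and 0.0705% of unchanged genes. For called against other endothelial-like cells (10507 genes), 51.1% and 92.6% were called, and 0.0456% of unchanged genes. These shares do not cover sparse members or members with a larger spread. Over all cells, the SE of the log2 difference was 0.65 for Mki67 and 0.44 for Tk1.

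Members named with every library's value were the 4 most abundant of each phase, any that passed, and the 2 with the smallest p in each direction over all cells and in endothelial-like cells. Mcm5 was added after its values were seen. Of other lists, up to 4 genes that passed or those with the smallest p are named, and of called against other cells those of the 10 largest changes in each direction at a mean of at least 20 CPM, of which 1 in each direction is not reported here. Promoters are from RefSeq (GRCm38.p6).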

Additional observations from a re-analysis of the deposited data

How the results depend on the processing

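Depth limits the sparse members, since G2/M genes had 59 to 1127 UMIs each in all cells and the S phase genes Tk1 and Rrm2 had 150 and 220. Named members and other genes kept their direction and their side of the threshold in 1291 comparisons with an alternative, lost the call in 166, all in called against other endothelial-like cells, gained it in 1 and changed sign in 35. The cause was not tested for any change below.

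By genotype over all cells, 370 genes were called with DESeq2, 54 with no filter on low counts and 5 with every barcode kept in every library, and 0 to 156 with 1 library left out (156 without Dsp_het 2), but 0 members throughout. In endothelial-like cells the counts were 15 with DESeq2, 144 with no filter and 0 to 11 with 1 library left out (11 without Dsp_het 2). With no filter, 1 of 39 members was called, Cdk1 (-0.94, edgeR adjusted p = 0.0395), against 144 of 17780 genes. In fibroblast-like cells they were 8 with DESeq2, 106 with no filter, 2 with every barcode kept, 0 without the libraries with Xist and 0 to 21 with 1 library left out (21 without control 2). In epicardial-like cells they were 45 with no filter, 1 without the libraries with Xist and 0 to 5 with 1 library left out. With no filter, 1 of 39 members was called there, against 45 of 15948 genes. This was Ccnb2, whose 34 UMIs there all came from Dsp_het 1. The replicate block gave 4, 18 and 3 genes in endothelial-like, fibroblast-like and epicardial-like cells and 0 members. Same-numbered libraries had correlations of 0.02, -0.08 and -0.06, so the numbers were not taken to pair the samples.

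The log2 ratio of the summed S phase level over all cells was -0.092 with barcodes of 1 library only, against -0.23. In endothelial-like cells, the log2 ratio of S phase calls alone, -0.45, became 0.16 with barcodes of 1 library only, -0.14 with at least 2 and -1.29 with at least 4 members per call, 0.16 without thinning, and -0.87 and -0.066 when thinned to 1000 and 4000 UMIs. That of G2/M calls was 0.18, and -0.76 to 0.54 with 1 library left out (-0.76 without Dsp_het 3).

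In called against other endothelial-like cells, 799 genes outside the cell cycle lists became 353 with at least 2 and 1313 with at least 4 members per call, 179 with thinned sums, 1285 with G2/M calls only and 449 to 951 with 1 library left out (449 without control 1). Egr1 changed sign with at least 2 members per call (0.023).

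Several members changed sign. Over all cells, Cenpa was at 0.034 with every barcode kept and -0.15 to 0.10 with 1 library left out, and Mcm7 at 0.12 with barcodes of 1 library only. Top2a was at -0.23 with the replicate block, -0.39 without the Xist libraries, -0.23 with barcodes of 1 library only and -0.51 to 0.54 with 1 library left out. Under the same settings Mki67 was at -0.12, -0.070, -0.27 and -0.53 to 0.68. Without the Xist libraries Cenpf was at -0.071 and Bub1b at -0.10, and Bub1b was at -0.015 to 0.88 with 1 library left out. In endothelial-like cells, Cenpa was at 0.058 and Cenpf at 0.67 with clusters made from all genes, Pcna at 0.0082 with barcodes of 1 library only and Aspm at -0.13 without the Xist libraries. With 1 library left out, the ranges were -1.31 to 0.17 for Top2a, -1.37 to 0.31 for Mki67, -0.82 to 0.23 for Cenpf, -0.19 to 0.00067 for Tipin, -0.41 to 0.75 for Aspm and -0.21 to 0.95 for Bub1b.

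Barcodes of 1 library only could not be fitted for fibroblast-like and epicardial-like cells, and macrophage and pericyte-like cells were not tested, having under 20 cells in some libraries.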
